A study of Homo sapiens with 12 samples.

Results

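Ribosome biogenesis factors are the proteins that make and mature the ribosomal RNAs and build them into the small (40S) and large (60S) ribosomal subunits. The list held 42 genes. For each gene the probe set annotated to that symbol alone, with the highest mean over the 12 arrays, was read, which gave values for 37 of the 42 among 19775 genes measured in this way. All 37 passed the filter on dim probe sets (a log2 signal over 4 on at least 3 of the 12 arrays), which 10683 genes passed in all. NOP56, DKC1 and BOP1 had probe sets annotated only to several symbols, GNL3 and DDX18 had none listed, and these 5 are not analysed here. By role the measured genes were 5 subunits of RNA polymerase I (Pol I), 3 proteins of the small nucleolar ribonucleoproteins (snoRNPs), 16 factors of 40S processing, 10 factors of 60S assembly and 3 abundant multifunctional nucleolar proteins.

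The cells were HK-2, an immortalised line of human proximal tubule epithelium from the kidney, 1 line adapted to culture. They were exposed to CdCl for 12 h (3 arrays), set against control cells given vehicle for 12 h (3 arrays), or to CdCl for 48 h (3 arrays), set against control cells given vehicle for 48 h (3 arrays). All 4 groups shared a serum-free hormone-supplemented mixture of DMEM and Ham's medium with antibiotics, were plated the day before exposure and were near confluence at its start, and replicates were labelled biological. No dose of CdCl is given in the sources used here. The study asked which transcripts follow kidney-toxic compounds in these cells.

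Values are log2 signals made with GCRMA, and a change is the log2 difference of CdCl minus control, with the standard error (SE) of one limma fit over the 12 arrays. A gene is called higher or lower where its p-value, adjusted by Benjamini-Hochberg over the 10683 tested genes, lay under 0.05. The signals are relative to the RNA put on each array, so fewer cells and less RNA per cell cannot be told apart from each other, and probe sets are not compared with each other in level. The proximal tubule and renal epithelium list had 16 genes, of which 15 had a probe set, 9 (PAX8, KRT8, KRT18, EPCAM, CDH1, CDH2, CDH6, CDH16 and SLC4A4) lay over 4 on all 12 arrays and 6 (PAX2, GGT1, ANPEP, AQP1, LRP2 and CUBN) on none. Of the 9 tested, 1 was higher and 4 lower with CdCl at 12 h, and 2 were higher and 4 lower at 48 h. The largest of these changes at 48 h were those of SLC4A4, with means of 9.46 in CdCl cells and 12.61 in control cells (-3.155, adjusted p = 2.35e-09), CDH16, with 5.13 in CdCl cells and 8.21 in control cells (-3.08, adjusted p = 6.35e-08), and CDH6, with 8.63 in CdCl cells and 10.87 in control cells (-2.24, adjusted p = 4.96e-08). Of 9 measured markers of other cell types, ACTA2 and AQP2 lay over 4 on all 12 arrays and 7 on none, and ACTA2 was lower with CdCl at both times (-0.57 and -0.61). Over all probe sets, arrays of one group correlated at 0.9965 to 0.9982 and arrays of different groups at 0.9731 to 0.989. The poly-A spike-in RNAs averaged 6.96 to 7.04 on the CdCl arrays at 12 h and 6.39 to 6.63 on the control arrays at 12 h, and 5.74 to 6.64 on the CdCl arrays at 48 h and 6.05 to 6.24 on the control arrays at 48 h. The lowest of these, 5.74, was CdCl replicate 2 at 48 h alone, with 6.64 and 6.54 on the other CdCl arrays at 48 h, and this array also had the lowest mean correlation with its own group (0.9967). It was the array farthest from its group's median for 18 of the 37 members, where the same count over all arrays ranged from 5 to 21. Without it, 14 members were higher and 5 lower at 48 h, and the members' median change at 48 h was 0.18 in place of 0.11. The part of the markers, the spike-ins and this array in the changes below was not tested beyond leaving the array out.

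Ribosome production starts in the nucleolus, where Pol I transcribes the ribosomal DNA into a long precursor RNA. The precursor is modified by snoRNPs, folded and cut by the small subunit processome and by the 60S assembly factors, and joined by ribosomal proteins that are imported from the cytoplasm. In mammalian cells many of the genes for these factors are targets of MYC, which binds the E-box CACGTG, and cells lower ribosome production under many kinds of stress.

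The promoters below belong to members whose changes were among the largest: WDR43, with the largest change at 12 h, IMP4 and RRP9, with the largest increases at 48 h, and POLR1D, with the largest decrease at both times. Each runs from 250 bases before to 50 bases after the RefSeq start in the direction of transcription, from the RefSeq promoter table of build GRCh38.p14, and capitals mark the E-box CACGTG. The regions are chr2:28894417-28894716 on the plus strand for WDR43, chr2:130342647-130342946 on the plus strand for IMP4, chr3:51941855-51942154 on the minus strand for RRP9 and chr13:27620493-27620792 on the plus strand for POLR1D.
WDR43: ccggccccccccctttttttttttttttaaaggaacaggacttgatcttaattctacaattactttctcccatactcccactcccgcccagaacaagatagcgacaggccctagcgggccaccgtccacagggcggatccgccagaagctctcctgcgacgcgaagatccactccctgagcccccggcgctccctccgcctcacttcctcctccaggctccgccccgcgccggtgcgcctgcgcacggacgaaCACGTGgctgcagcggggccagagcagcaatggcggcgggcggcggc
IMP4: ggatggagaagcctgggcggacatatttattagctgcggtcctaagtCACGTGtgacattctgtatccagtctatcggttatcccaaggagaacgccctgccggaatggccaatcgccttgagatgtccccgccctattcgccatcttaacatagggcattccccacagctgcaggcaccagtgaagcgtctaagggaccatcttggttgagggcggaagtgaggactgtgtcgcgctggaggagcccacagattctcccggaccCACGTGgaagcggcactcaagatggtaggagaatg
RRP9: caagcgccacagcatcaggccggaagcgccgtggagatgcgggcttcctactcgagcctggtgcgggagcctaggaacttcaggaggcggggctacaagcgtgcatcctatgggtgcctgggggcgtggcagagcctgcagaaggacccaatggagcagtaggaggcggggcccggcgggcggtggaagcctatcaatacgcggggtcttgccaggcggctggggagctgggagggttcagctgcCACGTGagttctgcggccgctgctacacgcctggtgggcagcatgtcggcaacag
POLR1D: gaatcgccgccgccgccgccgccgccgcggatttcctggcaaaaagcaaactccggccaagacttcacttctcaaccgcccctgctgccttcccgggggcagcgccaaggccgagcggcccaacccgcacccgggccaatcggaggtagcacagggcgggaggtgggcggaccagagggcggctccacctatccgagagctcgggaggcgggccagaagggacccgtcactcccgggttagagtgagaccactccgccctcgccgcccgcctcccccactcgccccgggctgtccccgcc

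The WDR43 promoter held CACGTG with its first base at position 4 after the start, IMP4 held it at positions -203 and 16, RRP9 held it at position -5, and neither promoter entry of POLR1D held it. The POLR1D promoter was 72.3% G and C, with 6 matches to GGGCGG on both strands, against 64.0% for WDR43, 56.0% for IMP4 and 67.0% for RRP9. Promoter entries were found for 33 of the 42 members, of which 30 were measured on the arrays. CACGTG, which reads the same on both strands, was present in 16 of the 30 (53.3%), against 1182 of the 8864 tested genes with an entry (13.3%). It stood in 8 of 11 members higher with CdCl at 12 h or 48 h (72.7%), in 3 of 9 members lower at either time (33.3%) and in 5 of 10 members called at neither time. Of the other motifs searched on both strands, CACGCG was present in 46.7% of the 30 members and 23.2% of the tested genes, GGGCGG in 73.3% and 78.1%, CCGGAAG in 36.7% and 23.5%, and TATAAA in 3.33% and 8.21%. CACGCG split the other way from CACGTG, in 3 of 11 members higher (27.3%), 7 of 9 lower (77.8%) and 4 of 10 called at neither time. These splits follow the calls as deposited and were not tested. The same splits by call were not counted over all tested genes, so no link between a motif and a direction can be read from them. Most lower calls at 12 h were lost with arrays centred on their medians, as described below. No motif contains another. A match describes the letters of the window and is not a bound site.

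At 12 h, 7 of the 37 members were higher in CdCl cells (18.9%) and 9 were lower (24.3%). Over all tested genes 16.7% were called higher and 39.7% lower, so the share higher was near that of all genes and the share lower was smaller. At 48 h, 14 of the 37 were higher in CdCl cells (37.8%) and 7 were lower (18.9%), where 26.5% of all tested genes were called higher and 28.0% lower. The median change of the members was -0.008 at 12 h and 0.11 at 48 h, against -0.16 and -0.015 for all tested genes. Since the members were chosen with results of these data known, these shares describe the list and are not a test of it.

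The 12 h split changed with centring of the arrays and little with quantile normalisation. Quantile normalisation gave 7 members higher (18.9%) and 8 lower (21.6%) at 12 h, against 17.9% and 37% of all tested genes. When each array was centred on its median over the tested genes, which moved the median change of all genes at 12 h to -0.011, 12 members were higher (32.4%) and 2 lower (5.41%), against 24.4% and 26.5% of all tested genes. Relative to the median of all genes, the members' median change at 12 h was 0.15 as deposited. With this centring 7 of the 9 lower calls at 12 h were lost, those of POLR1A, POLR1E, FBL, NOP14, HEATR1, NAT10 and RRP1B, and POLR1D and NCL stayed lower. GNL2, IMP4, MRTO4, NOP58 and TSR1 became higher at 12 h. At 48 h the count of higher calls stayed at 14, and centring gave 4 lower calls in place of 7, without those of POLR1E, NOP14 and NPM1. The centred shares at 48 h were 37.8% higher and 10.8% lower, against 28% and 26.6% of all tested genes.

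No member reached a 2-fold change with an adjusted p under 0.05 at either time, where 8.48% of all tested genes did so at 12 h and 9.88% at 48 h. WDR43 changed most at 12 h, 1.65-fold, and IMP4 most at 48 h, 1.59-fold. The 3 CdCl arrays all lay above the 3 control arrays for 11 members at 12 h and all below for 11, against 19.8% and 46.6% of all tested genes. At 48 h the CdCl arrays all lay above the control arrays for 14 members and all below for 9, against 29.1% and 30.9% of all tested genes. Exact permutation of 3 arrays a group gives p-values no smaller than 0.1, so the calls of single genes rest on the spread that limma pools over genes.

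Of the 37 members, 6 were higher with CdCl at both times: WDR43, DDX10, PNO1, NOP16, RRS1 and DDX21. Another 5 were lower at both times: POLR1D, POLR1E, FBL, NOP14 and NCL. Over all tested genes 11.4% were higher at both times and 19.0% lower at both. Another 8 members were called higher at 48 h only (NOP58, IMP4, RRP9, BYSL, TSR1, RRP12, NOP2 and PES1), 2 lower at 48 h only (WDR75 and NPM1), 4 lower at 12 h only (POLR1A, HEATR1, NAT10 and RRP1B) and 1 higher at 12 h only (DDX52). No member was called in opposite directions at the 2 times. The 11 members called at neither time were POLR1B, POLR1C, NOLC1, UTP4, NOL6, LTV1, NOC2L, WDR12, GNL2, NIP7 and MRTO4. For the patterns other than higher or lower at both times, the shares over all tested genes are not given here. Those counts, also that of opposite directions, describe the list only.

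**Figure D1:**
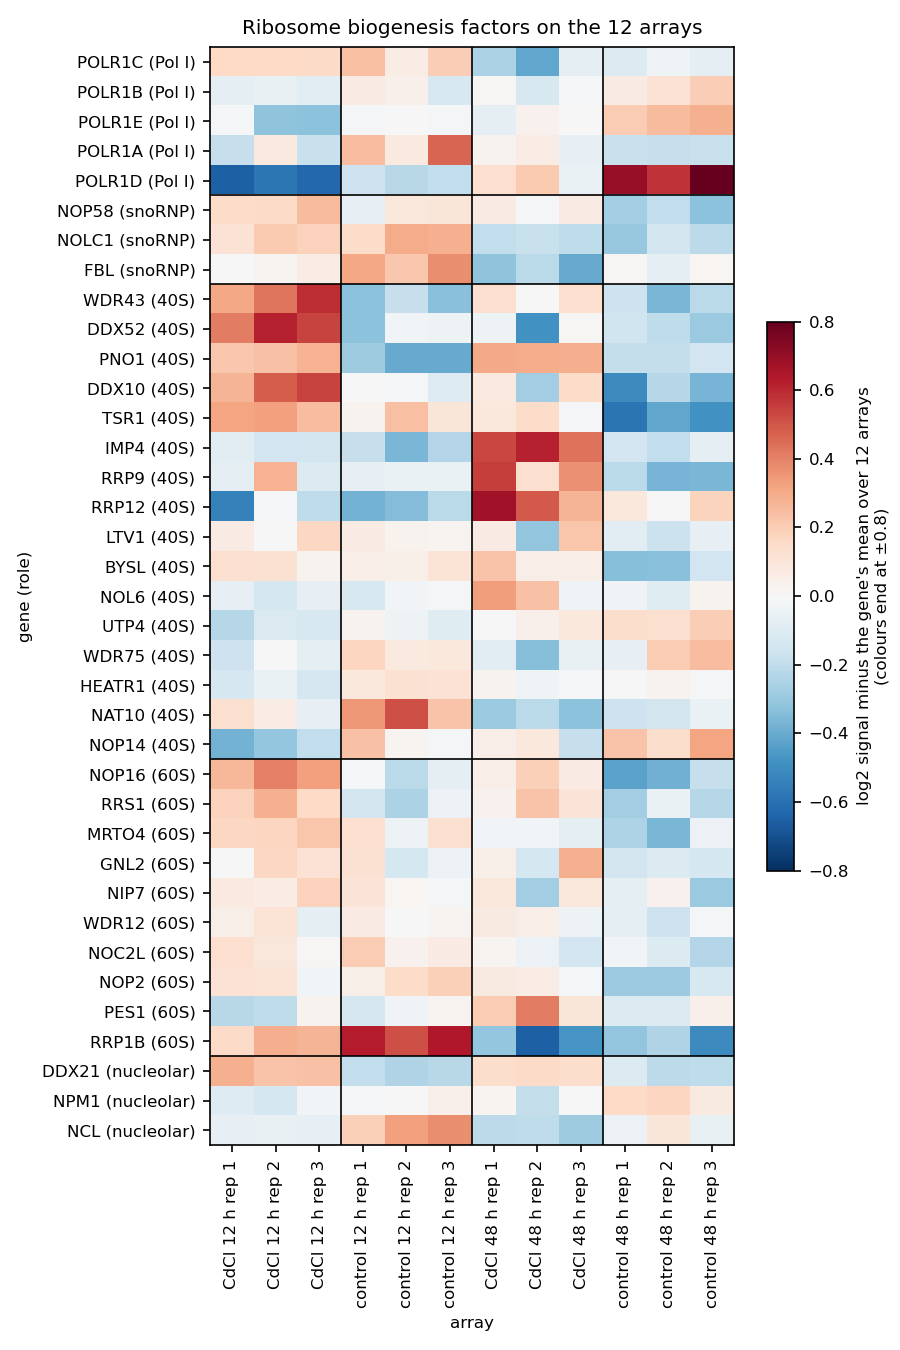
Each column is an array, grouped as CdCl and control at 12 h and CdCl and control at 48 h, each line is one of the 37 measured members ordered by role, and colour gives the log2 signal minus the gene's mean over the 12 arrays (colours end at 0.8 on either side). WDR43, DDX52 and DDX10 are reddest on the 3 CdCl arrays at 12 h, IMP4, RRP9 and RRP12 on the CdCl arrays at 48 h, and POLR1D is bluest on the CdCl arrays at 12 h.

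The 5 Pol I subunits in the list were lower or not called in CdCl cells, and none of the 5 was called higher at either time. Over all tested genes 16.7% were higher at 12 h and 26.5% at 48 h, and 5 genes are too few to set apart from these shares. At 12 h 3 of 5 were lower (60%), against 39.7% of all tested genes, and at 48 h 2 of 5 (40%), against 28.0%. The absence of higher calls did not extend to all subunits. Of 8 further subunits of Pol I, some of them shared with other polymerases, 0 were higher and 3 lower at 12 h, the share lower being near that of all tested genes. At 48 h 2 of them were higher (POLR1H, 0.38, and POLR2E, 0.34) and 2 lower. With arrays centred on their medians, POLR1D alone kept the call at each time. POLR1D, a subunit shared by Pol I and Pol III, had log2 signals of 9.40, 9.48 and 9.43 in CdCl cells at 12 h, against 9.89, 9.83 and 9.86 in control cells at 12 h. The 3 CdCl arrays lay below every control array, with a change of -0.425 ± 0.09 (SE, limma adjusted p = 0.00148). At 48 h POLR1D read 10.19, 10.26 and 10.00 in CdCl cells, against 10.75, 10.63 and 10.92 in control cells. Again no CdCl array reached the control range, and the change was -0.62 ± 0.09 (adjusted p = 9.67e-05, 1.54-fold lower). Its other 2 probe sets changed by -0.38 and -0.165 at 12 h and by -0.75 and -0.85 at 48 h.

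POLR1A, the largest catalytic subunit of Pol I, had signals of 5.59, 5.86 and 5.60 in CdCl cells at 12 h, against 6.03, 5.86 and 6.24 in control cells at 12 h. The highest CdCl array and the lowest control array met at 5.86, and the change of -0.36 ± 0.10 passed the test (adjusted p = 0.01). At 48 h POLR1A read 5.80, 5.84 and 5.72 in CdCl cells, against 5.60 on each of the 3 control arrays at this rounding. The CdCl arrays were then all above the control arrays, but the change of 0.19 ± 0.10 was not called (adjusted p = 0.141). The other probe set of POLR1A that passed the filter was dimmer, with a mean of 4.48. It gave -0.78 at 12 h (adjusted p over all probe sets 0.00703) and -0.39 at 48 h (0.127). POLR1E, a subunit found in Pol I alone, had signals of 7.62, 7.31 and 7.31 in CdCl cells at 12 h, against 7.62, 7.63 and 7.63 in control cells. One CdCl array lay at 7.619, just below the lowest control array at 7.623, and the change was -0.21 ± 0.08 (adjusted p = 0.0448). That call held only without CdCl replicate 1 at 12 h or CdCl replicate 2 at 48 h, and leaving out any of the other 10 arrays gave adjusted p-values of 0.0528 to 0.159. At 48 h POLR1E read 7.56, 7.67 and 7.63 in CdCl cells, against 7.84, 7.89 and 7.92 in control cells. The groups did not overlap and the change was -0.26 ± 0.08 (adjusted p = 0.019), which was lost without CdCl replicate 1 (0.0645) or control replicate 3 (0.0546) at 48 h. POLR1B, the other large catalytic subunit, changed by -0.07 at 12 h and -0.17 at 48 h, and POLR1C, the partner of POLR1D in Pol I and Pol III, by -0.008 and -0.17, and neither was called. Another probe set of POLR1B was lower at 12 h (-0.35, adjusted p over all probe sets 0.0186). POLR1B became lower at 48 h without control replicate 3 at 12 h (adjusted p = 0.0431), and POLR1C without CdCl replicate 3 at 48 h (-0.26, adjusted p = 0.0184).

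The measured snoRNP proteins went separate ways. FBL (fibrillarin), the methyltransferase that 2'-O-methylates ribosomal RNA, had signals of 11.72, 11.73 and 11.77 in CdCl cells at 12 h, against 12.02, 11.93 and 12.08 in control cells, and 11.39, 11.50 and 11.31 in CdCl cells at 48 h, against 11.72, 11.64 and 11.72 in control cells. At each time every CdCl array was below every control array. The changes were -0.27 ± 0.07 at 12 h (adjusted p = 0.00568) and -0.30 ± 0.07 at 48 h (adjusted p = 0.00339). NOP58, a core protein of the same box C/D snoRNPs, had signals of 11.66, 11.67 and 11.77 in CdCl cells at 12 h, against 11.45, 11.60 and 11.61 in control cells, and 11.58, 11.51 and 11.58 in CdCl cells at 48 h, against 11.24, 11.32 and 11.18 in control cells. Its CdCl arrays lay above the control arrays at both times, and the change was called at 48 h (0.31 ± 0.07, adjusted p = 0.00267) but not at 12 h (0.145 ± 0.07, adjusted p = 0.0934). NOLC1, a nucleolar chaperone of snoRNPs, was not called on the probe set used, with -0.07 at 12 h and 0.03 at 48 h. Its other 2 probe sets were higher at 12 h (0.265 and 0.68, adjusted p over all probe sets 0.0162 and 0.000677) and at 48 h (0.39 and 0.50, 0.00179 and 0.00464), so the probe sets of NOLC1 disagree.

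Factors of 40S processing held the largest changes in the list. At 12 h 4 of the 16 were higher in CdCl cells (25%) and 3 lower (18.8%), against 16.7% and 39.7% of all tested genes. At 48 h 8 were higher (50%) and 2 lower (12.5%), against 26.5% and 28.0%. The median change was 0.05 at 12 h and 0.28 at 48 h. WDR43, DDX10 and PNO1 were higher at both times, IMP4, RRP9, BYSL, TSR1 and RRP12 at 48 h only, and DDX52 at 12 h only. With arrays centred on their medians, 6 were higher and 0 lower at 12 h, and 8 higher and 1 lower at 48 h.

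WDR43, a subunit of the processome's subcomplex that associates with ribosomal DNA transcription, had signals of 9.09, 9.21 and 9.37 in CdCl cells at 12 h, against 8.46, 8.60 and 8.45 in control cells. All CdCl arrays lay above the control arrays, and the change was 0.72 ± 0.09 (adjusted p = 3.57e-05). At 48 h WDR43 read 8.91, 8.79 and 8.92 in CdCl cells, against 8.62, 8.42 and 8.56 in control cells, without overlap, a change of 0.34 ± 0.09 (adjusted p = 0.00635). DDX52, an RNA helicase whose yeast counterpart Rok1 acts on 18S precursor RNA, had signals of 7.89, 8.10 and 8.03 in CdCl cells at 12 h, against 7.16, 7.46 and 7.45 in control cells. The change was 0.65 ± 0.13 with no overlap (adjusted p = 0.00112). At 48 h DDX52 read 7.44, 7.00 and 7.49 in CdCl cells, against 7.32, 7.28 and 7.18 in control cells, and CdCl replicate 2 was the lowest of the 6 arrays. The 48 h change of 0.05 ± 0.13 was not called (adjusted p = 0.778), while 2 other probe sets of DDX52 gave 0.285 (adjusted p over all probe sets 0.202) and 0.45 (0.0116) at 48 h. PNO1, which binds the 18S precursor in the late 40S particle, had signals of 9.37, 9.39 and 9.44 in CdCl cells at 12 h, against 8.87, 8.75 and 8.75 in control cells, and 9.46, 9.45 and 9.44 in CdCl cells at 48 h, against 8.96, 8.96 and 9.00 in control cells. The groups were without overlap at both times, with changes of 0.61 ± 0.06 at 12 h (adjusted p = 5.84e-06) and 0.47 ± 0.06 at 48 h (adjusted p = 3.38e-05). Neither of the other probe sets of PNO1 that passed the filter was called at both times. They gave 0.385 (adjusted p over all probe sets 0.0012) and 0.17 (0.383) at 12 h. At 48 h they gave, in the same order, 0.11 (0.245) and 0.435 (0.0327).

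IMP4, a protein of the U3 snoRNP complex that guides the first cuts in the precursor, had signals of 8.38, 8.31 and 8.32 in CdCl cells at 12 h, against 8.28, 8.10 and 8.23 in control cells, a change of 0.13 ± 0.07 that was not called (adjusted p = 0.143). At 48 h IMP4 read 9.00, 9.08 and 8.90 in CdCl cells, against 8.31, 8.27 and 8.39 in control cells. Every CdCl array stood above the control range, and the change was 0.67 ± 0.07 (adjusted p = 1.25e-05). RRP9, a protein specific to the U3 snoRNP, had signals of 5.27, 5.62 and 5.23 in CdCl cells at 12 h, against 5.27, 5.29 and 5.28 in control cells, where only CdCl replicate 2 was above the controls. At 48 h RRP9 read 5.90, 5.47 and 5.71 in CdCl cells, against 5.12, 4.97 and 4.98 in control cells, without overlap, and the change was 0.67 ± 0.12 (adjusted p = 0.00058). Its only probe set was rather dim, under a log2 signal of 6 on every array. TSR1, a GTPase-like factor of the late 40S precursor, had signals of 9.57, 9.59 and 9.50 in CdCl cells at 12 h, against 9.29, 9.49 and 9.36 in control cells, and its change of 0.18 ± 0.08 was not called (adjusted p = 0.0678). Without control replicate 2 at 12 h it was 0.23 (adjusted p = 0.0304). At 48 h TSR1 read 9.34, 9.40 and 9.25 in CdCl cells, against 8.67, 8.84 and 8.77 in control cells. All CdCl arrays were above the controls, a change of 0.57 ± 0.08 (adjusted p = 6.34e-05). The other probe sets of TSR1 gave 0.48 (adjusted p over all probe sets 0.00189), 0.175 (0.198) and -0.13 (0.486) at 48 h. TSR1 was lower at 48 h than at 12 h in both treatments, less so in CdCl cells (-0.22 ± 0.08) than in control cells (-0.62 ± 0.08).

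Other 40S factors moved less. DDX10, an RNA helicase of the processome, was higher at 12 h (0.47 ± 0.12, adjusted p = 0.00479) and at 48 h (0.35 ± 0.12, adjusted p = 0.0239). BYSL (bystin), a factor of 40S precursor maturation, was higher at 48 h (0.39 ± 0.08, adjusted p = 0.00102), with 0.02 at 12 h. RRP12, an export factor of 40S precursors, was higher at 48 h (0.39 ± 0.13, adjusted p = 0.0263), with 0.06 at 12 h, where another probe set of RRP12 gave 0.415 (adjusted p over all probe sets 0.0426). The 48 h call of DDX10 was lost without CdCl replicates 1 (0.0812) or 3 (0.0945) or control replicates 1 (0.0948) or 3 (0.0531) at 48 h, and that of RRP12 without CdCl replicates 1 (0.106) or 2 (0.0571) or control replicates 1 (0.0618) or 2 (0.083) at 48 h. The lower 40S factors were NOP14, a processome scaffold, with -0.38 ± 0.10 at 12 h (adjusted p = 0.00552) and -0.25 ± 0.10 at 48 h (adjusted p = 0.0465), and WDR75, a partner of WDR43, with -0.29 ± 0.10 at 48 h (adjusted p = 0.0273). NOP14 kept its 48 h call only without CdCl replicate 3 or control replicate 1 at 12 h, or CdCl replicate 2 or control replicate 2 at 48 h, and the other 8 omissions gave 0.05 to 0.181. WDR75 lost its 48 h call without CdCl replicate 2 (0.105), control replicate 2 (0.0883) or control replicate 3 (0.0997) at 48 h.

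HEATR1, a large scaffold of the same subcomplex as WDR43, was lower at 12 h (-0.215 ± 0.06, adjusted p = 0.00643) and read -0.01 at 48 h. Another probe set of HEATR1 went the other way at 12 h, with 0.77 (adjusted p over all probe sets 0.0167), while 2 others gave -0.28 and -0.40. NAT10, the acetyltransferase of 18S ribosomal RNA, was lower at 12 h (-0.32 ± 0.08, adjusted p = 0.00635), with -0.16 at 48 h (adjusted p = 0.131). UTP4, NOL6 and LTV1 were not called at either time on the probe sets used, with changes of -0.12, -0.035 and 0.04 at 12 h and of -0.11, 0.21 and 0.10 at 48 h. UTP4 belongs with WDR43 and HEATR1 in the processome, NOL6 binds early precursor RNA, and LTV1 is a late 40S factor. The other probe set of UTP4 was lower at 12 h (-0.29, adjusted p over all probe sets 0.00542). Leaving out 1 array brought a call at 48 h for LTV1, 0.25 without CdCl replicate 2 at 48 h (adjusted p = 0.0177), and for NOL6, 0.32 without CdCl replicate 3 at 48 h (adjusted p = 0.00444).

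**Figure D2:**
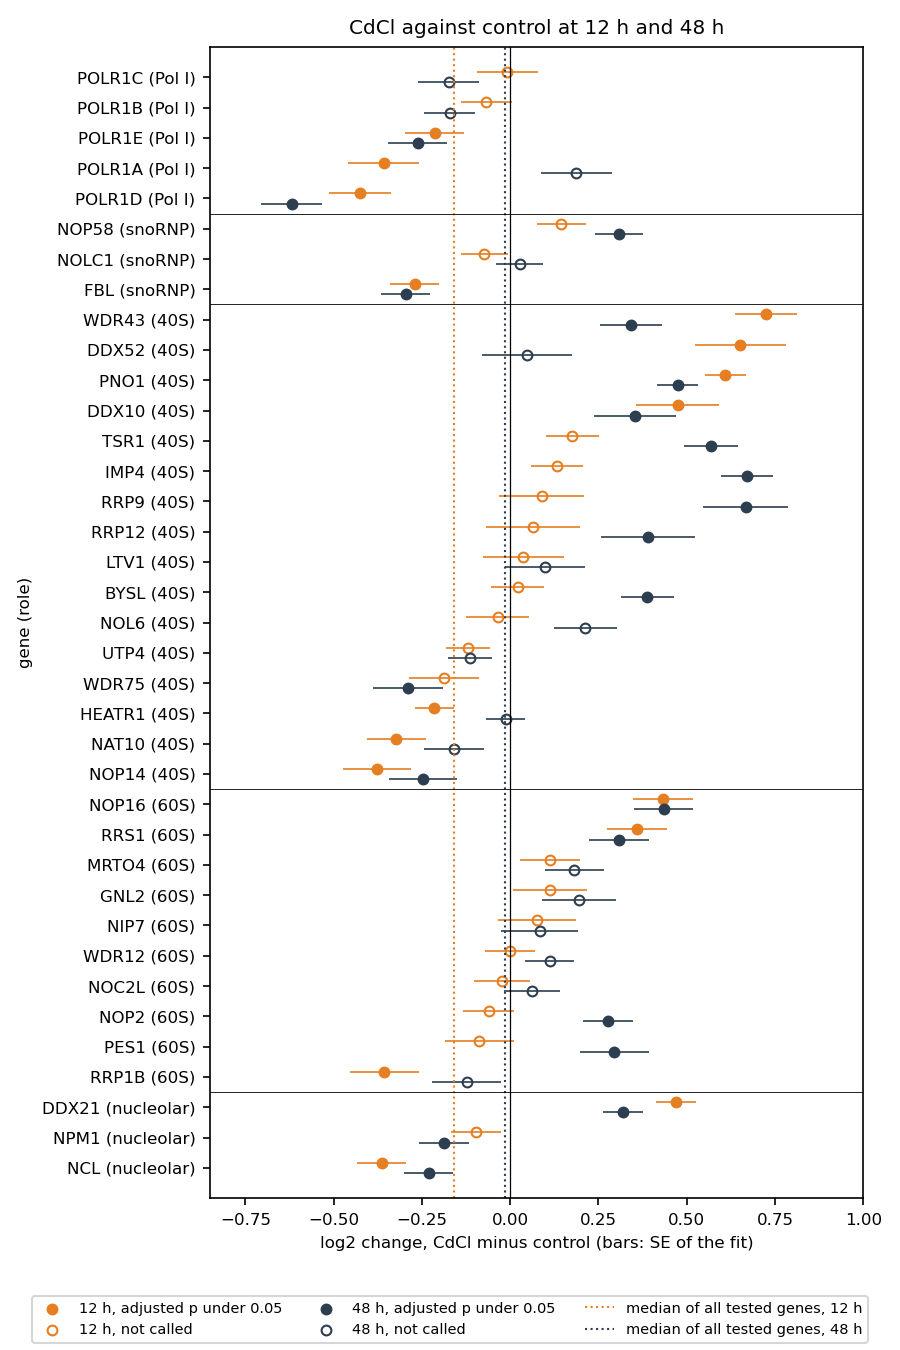
The horizontal axis gives the log2 change of CdCl minus control with the SE of the fit as bars for the 37 members, ordered by role, with 12 h above 48 h in each line, filled points for adjusted p under 0.05 and dotted lines at the median of all tested genes. WDR43 lies farthest to the right at 12 h (0.72), IMP4 (0.67) and RRP9 (0.67) at 48 h, and POLR1D farthest to the left at both times (-0.425 and -0.62).

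Factors of 60S assembly were higher or not called at 48 h, with 4 of 10 higher (40%) and 0 lower, against 26.5% and 28.0% of all tested genes. At 12 h 2 were higher (20%) and 1 lower (10%), against 16.7% and 39.7% of all tested genes. With arrays centred on their medians, 4 were higher and 0 lower at each time. NOP16, a nucleolar protein of the early 60S particle, had signals of 9.38, 9.51 and 9.44 in CdCl cells at 12 h, against 9.10, 8.90 and 9.04 in control cells, and 9.16, 9.30 and 9.18 in CdCl cells at 48 h, against 8.69, 8.73 and 8.93 in control cells. The CdCl arrays were all above the control arrays at both times. Its change was 0.43 ± 0.08 at 12 h (adjusted p = 0.00102) and 0.435 ± 0.08 at 48 h (adjusted p = 0.000988). RRS1, which helps to bring the 5S ribonucleoprotein into the 60S precursor, had signals of 9.19, 9.29 and 9.16 in CdCl cells at 12 h, against 8.86, 8.75 and 8.96 in control cells, and 9.04, 9.23 and 9.11 in CdCl cells at 48 h, against 8.72, 8.95 and 8.78 in control cells. Neither time showed overlap, and the changes were 0.36 ± 0.085 at 12 h (adjusted p = 0.00362) and 0.31 ± 0.085 at 48 h (adjusted p = 0.00875).

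PES1 (pescadillo), which forms the PeBoW complex with BOP1 and WDR12, had signals of 8.73, 8.75 and 8.98 in CdCl cells at 12 h, against 8.82, 8.93 and 8.98 in control cells, which overlap, and its change of -0.09 ± 0.10 was not called. At 48 h PES1 read 9.15, 9.36 and 9.05 in CdCl cells, against 8.85, 8.85 and 8.99 in control cells, with no overlap. The change was 0.295 ± 0.10 (adjusted p = 0.0232), and the call was lost without CdCl replicate 2 (0.0901), control replicate 1 (0.0726) or control replicate 2 (0.0691) at 48 h. WDR12, its partner, read -0.001 at 12 h and 0.11 at 48 h and was not called. NOP2, a methyltransferase of 28S ribosomal RNA, was higher at 48 h (0.28 ± 0.07, adjusted p = 0.00657), with -0.06 at 12 h. RRP1B had signals of 10.06, 10.20 and 10.18 in CdCl cells at 12 h, against 10.54, 10.43 and 10.55 in control cells, and 9.60, 9.26 and 9.44 in CdCl cells at 48 h, against 9.60, 9.67 and 9.40 in control cells. The groups were apart at 12 h only, where the change was -0.36 ± 0.10 (adjusted p = 0.00844), and at 48 h it was -0.12 ± 0.10 (adjusted p = 0.312). The second probe set of RRP1B was higher at 12 h (0.43, adjusted p over all probe sets 0.0157), so the direction for this gene depends on the probe set. NOC2L, GNL2, NIP7 and MRTO4 were not called at either time as deposited, with changes between -0.02 and 0.11 at 12 h and between 0.06 and 0.195 at 48 h. At 48 h GNL2 became higher without CdCl replicate 2 (0.30, adjusted p = 0.0251) and MRTO4 without control replicate 3 (0.27, adjusted p = 0.0137). They are, in that order, a partner in complexes that carry 60S precursors through the nucleus, a nucleolar GTPase, an assembly factor known from yeast and the protein that holds the place of the stalk protein P0.

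The abundant nucleolar proteins split by gene. DDX21, a helicase that couples ribosomal DNA transcription to precursor processing, had signals of 11.80, 11.75 and 11.76 in CdCl cells at 12 h, against 11.32, 11.28 and 11.30 in control cells, and 11.66, 11.68 and 11.66 in CdCl cells at 48 h, against 11.41, 11.31 and 11.32 in control cells. Every CdCl array was above every control array at each time. The change was 0.47 ± 0.06 at 12 h (adjusted p = 3.31e-05) and 0.32 ± 0.06 at 48 h (adjusted p = 0.000516). NCL (nucleolin), which binds precursor RNA and nucleolar chromatin, had signals of 12.10 on all 3 CdCl arrays at 12 h, against 12.36, 12.49 and 12.54 in control cells, and 11.96, 11.96 and 11.88 in CdCl cells at 48 h, against 12.12, 12.26 and 12.11 in control cells. Its CdCl arrays were all below the control arrays at each time, with changes of -0.36 ± 0.07 at 12 h (adjusted p = 0.000915) and -0.23 ± 0.07 at 48 h (adjusted p = 0.0143). The 48 h call of NCL was lost without CdCl replicate 3 (0.0501) or control replicate 2 (0.06) at 48 h. NPM1 (nucleophosmin), a chaperone of ribosomal particles and histones, had signals of 14.26, 14.22 and 14.34 in CdCl cells at 12 h, against 14.34, 14.36 and 14.40 in control cells, and 14.38, 14.17 and 14.36 in CdCl cells at 48 h, against 14.52, 14.53 and 14.43 in control cells. Its CdCl arrays lay below the control arrays at both times, at 12 h by little (highest CdCl array 14.338, lowest control array 14.345). On the probe set used, the change was called at 48 h only (-0.19 ± 0.07, adjusted p = 0.0427), and the call held only without CdCl replicate 3 at 12 h or without CdCl replicate 1, CdCl replicate 3 or control replicate 3 at 48 h. The other 8 omissions gave 0.0513 to 0.151. The other 2 probe sets of NPM1 were both lower at 48 h, by -0.27 and -0.32 (adjusted p over all probe sets 0.00683 and 0.00181), and one of them at 12 h (-0.31, 0.00228). With the mean of its 3 probe sets NPM1 was also lower at 12 h (-0.18, adjusted p = 0.0052). NPM1 has many processed pseudogenes, and its probe sets can also bind their transcripts.

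**Figure D3:**
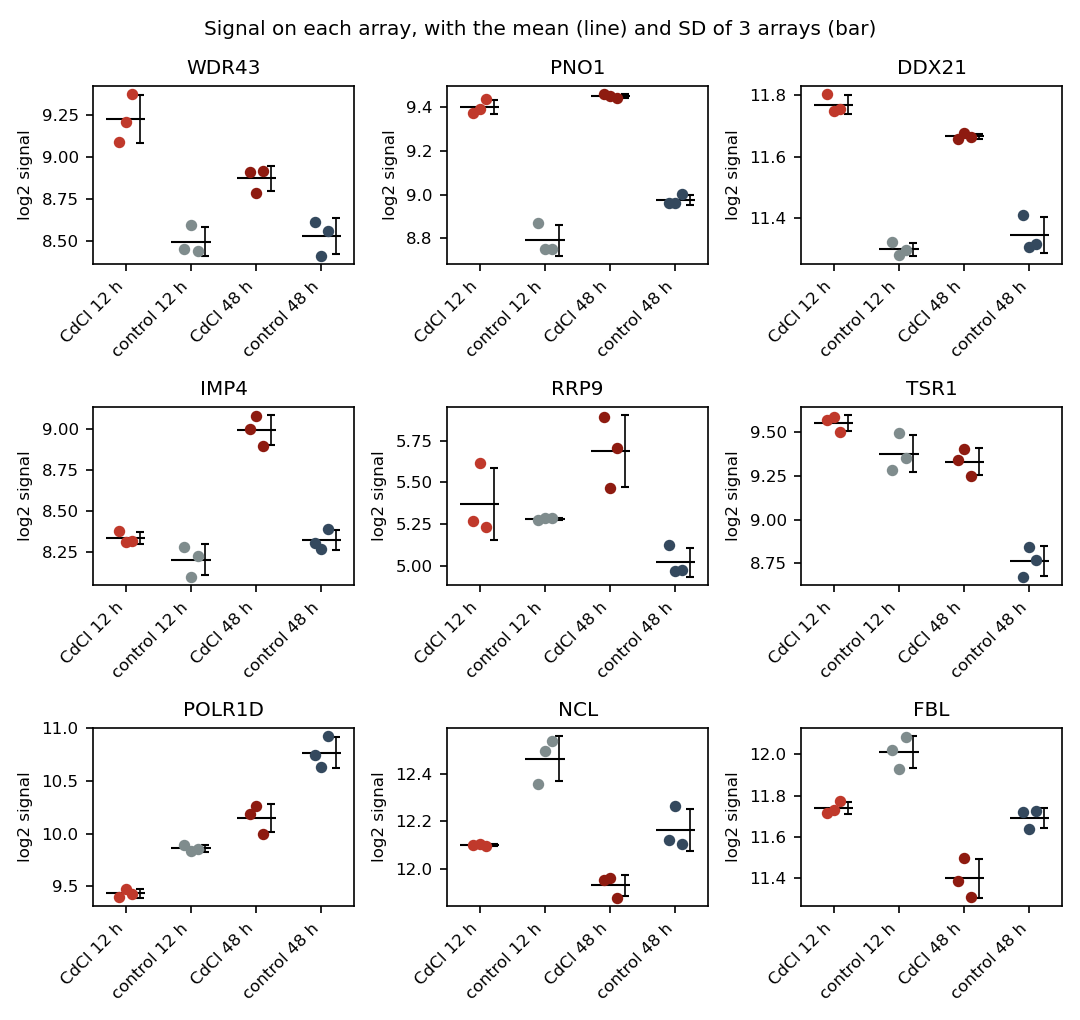
Each panel gives the log2 signal of one member on each array as points, with the mean as a line and the SD of 3 arrays as a bar, for CdCl and control at 12 h and CdCl and control at 48 h (vertical axes differ and do not start at 0). WDR43, PNO1 and DDX21 sit above the controls at both times, IMP4, RRP9 and TSR1 are farthest from theirs at 48 h, and POLR1D, NCL and FBL sit below the controls at both times.

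Other probe sets of the members were read on the same arrays as a check on these calls. There were 48 further probe sets, of which 30 passed the filter, for 19 genes. At 12 h, of 13 whose gene was called on the probe set used, 11 had the same sign, 8 the same call and 2 the opposite call, those of HEATR1 and RRP1B. At 48 h, of 12 such probe sets 11 had the same sign, 9 the same call and 0 the opposite call. Of 17 further probe sets whose gene was not called on the probe set used at 12 h, 6 were called themselves, for NOLC1, NPM1, POLR1B, RRP12 and UTP4, and of 18 at 48 h, 3 were, for DDX52 and NOLC1.

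On the probe sets used, the effect of CdCl differed between the times for 9 members, tested as the 48 h change minus the 12 h change. The effect was higher at 48 h for 7 members and lower for 2, where 27.0% of all tested genes were called higher and 13.0% lower in the same contrast. With arrays centred on their medians 3 were higher and 4 lower, since BYSL, TSR1, NOP2 and PES1 were no longer called and PNO1 and DDX21 became lower. Over all 10683 tested genes that centring gave 1907 higher and 1989 lower in this contrast. IMP4 had the smallest adjusted p, with a difference of 0.54 ± 0.10 (adjusted p = 0.00182), followed by POLR1A, TSR1, BYSL, RRP9, NOP2 and PES1, whose effects were 0.34 to 0.58 higher at 48 h. DDX52 (-0.605 ± 0.18, adjusted p = 0.0206) and WDR43 (-0.38 ± 0.125, adjusted p = 0.0295) had smaller effects at 48 h. The other probe sets of DDX52 did not show this difference, with -0.02 and -0.06 (adjusted p over all probe sets 0.962 and 0.818). Those of TSR1 were not called either, with 0.33, -0.05 and -0.10 (0.0906, 0.808 and 0.722). Nor was the other probe set of POLR1A that passed the filter, a dim one, with 0.385 (0.319). Of 24 other probe sets of members not called in this contrast, 5 were called themselves. For POLR1D, which gave -0.19 on the probe set used (adjusted p = 0.235), the other 2 probe sets gave -0.37 and -0.685 (adjusted p over all probe sets 0.0274 and 0.000788), and the mean of its probe sets -0.42 (adjusted p = 0.00284). For HEATR1, 2 other probe sets gave 0.38 (0.0119) and -1.04 (0.0293), in opposite directions, and one of DDX21 gave -0.26 (0.0487). NOL6 was called without CdCl replicate 3 at 48 h (0.35, adjusted p = 0.0175). The call for PES1 (0.38 ± 0.14, adjusted p = 0.0451) held only without replicate 3 of CdCl at 12 h, CdCl at 48 h or control at 48 h, or replicate 1 of control at 12 h, and the other 8 omissions gave 0.0628 to 0.101. WDR43 lost the call without CdCl replicate 3 or control replicates 1 or 3 at 12 h, or CdCl replicate 2 or control replicates 1 or 3 at 48 h (0.0568 to 0.0717), and NOP2 without control replicate 1 at 48 h (0.0523). Across the 37 members the 48 h changes correlated with the 12 h changes at Pearson 0.649 and Spearman 0.76, and across all tested genes at 0.627 and 0.552, a description across genes of one line that share arrays and scaling.

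Many members also changed with time in culture. In control cells at 48 h, against control cells at 12 h, 15 of the 37 were lower (40.5%) and 5 higher (13.5%), where 33.5% of all tested genes were lower and 23.4% higher. The count of 5 became 1 without control replicate 3 at 48 h, 2 without control replicate 2 at 12 h and 3 without control replicate 3 at 12 h. In CdCl cells at 48 h, against CdCl cells at 12 h, 11 members were lower (29.7%) and 9 higher (24.3%), where 27.6% and 34.7% of all tested genes were. Leaving out 1 array gave 5 to 8 of these higher calls, with 5 without CdCl replicate 1 at 48 h. The largest change with time in control cells was that of RRP1B, -0.95 ± 0.10 (adjusted p = 7.24e-06), followed by POLR1D, 0.91 ± 0.09 (adjusted p = 4.16e-06), and TSR1, -0.62 ± 0.08 (adjusted p = 3.01e-05). In CdCl cells POLR1D was also higher at 48 h than at 12 h (0.72 ± 0.09) and RRP1B also lower (-0.71 ± 0.10). RRP12 was higher at 48 h than at 12 h by 0.73 ± 0.13 in CdCl cells and by 0.40 ± 0.13 in control cells. For BYSL and NOP2, the control cells were lower at 48 h than at 12 h (-0.35 ± 0.08 and -0.365 ± 0.07), while in CdCl cells the time difference was 0.02 and -0.03 and was not called. POLR1A likewise was lower at 48 h in control cells (-0.44 ± 0.10, adjusted p = 0.0028) and read 0.10 in CdCl cells. The 48 h contrast between CdCl and control for these genes is set against controls that had changed since 12 h. Both time comparisons share groups with the CdCl comparisons and are no independent evidence of them.

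**Figure D4:**
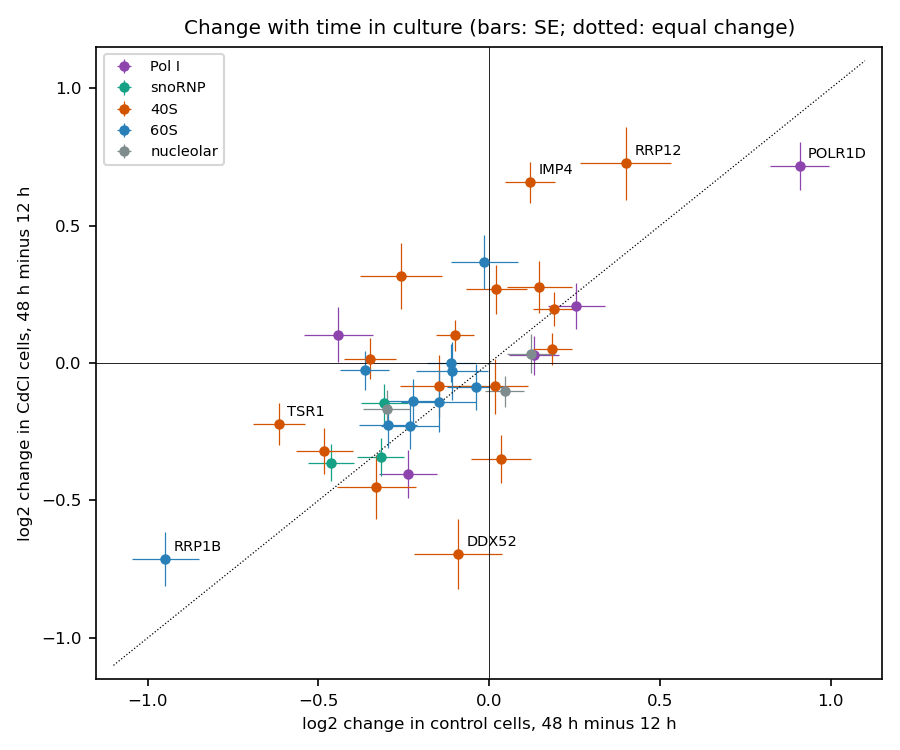
Each point is one member, with the log2 change from time in control cells (48 h minus 12 h) on the horizontal axis, the same in CdCl cells on the vertical axis, SE bars, colours for the role and a dotted line of equal change. POLR1D (0.91 in control cells) and RRP1B (-0.95) move the same way in both treatments, while IMP4 lies above the line and DDX52 below it.

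Other genes of the pathway were read from lists of Pol I factors with MYC and its partners, of further processing and assembly factors, and of ribosomal proteins. Among 21 tested Pol I factors and MYC partners, 4 were higher (19.0%) and 6 lower (28.6%) in CdCl cells at 12 h, and 7 higher (33.3%) and 5 lower (23.8%) at 48 h. Each share in these lists reads against the 16.7% higher and 39.7% lower of all tested genes at 12 h, and the 26.5% and 28.0% at 48 h, and the difference from these was not tested. MXD1, a transcription factor that pairs with MAX and opposes MYC at E-boxes, averaged 8.58 ± 0.18 in CdCl cells and 5.88 ± 0.10 in control cells at 12 h (SD, n = 3 each), a change of 2.70 ± 0.13 (limma adjusted p = 2.15e-08). At 48 h MXD1 averaged 7.61 ± 0.215 in CdCl cells and 6.04 ± 0.18 in control cells (SD, n = 3 each), a change of 1.57 ± 0.13 (limma adjusted p = 1.3e-06). MXI1, of the same family, was higher by 0.81 at 12 h and 0.49 at 48 h. MYC itself averaged 10.71 ± 0.12 in CdCl cells and 10.62 ± 0.05 in control cells at 12 h, which was not called, and 10.87 ± 0.12 in CdCl cells and 11.16 ± 0.05 in control cells at 48 h, a change of -0.29 ± 0.08 (adjusted p = 0.0102). UBTF, which binds the ribosomal DNA promoter, changed by -0.97 ± 0.18 at 12 h (adjusted p = 0.00068) and -0.26 at 48 h, which was not called. TAF1A, a subunit of the Pol I selectivity factor, was higher by 0.52 at 12 h and 0.78 at 48 h. RRN3, another Pol I initiation factor, was higher by 0.78 and 0.50. TTF1 was lower at both times (-0.42 and -0.22), TAF1D was lower at 12 h (-0.42) and TAF1B higher at 48 h (0.31). MNT, another MAX partner, changed by -0.71 at 48 h (adjusted p = 0.000787).

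Of 41 other 40S factors, 5 were higher (12.2%) and 9 lower (22%) at 12 h, and 17 higher (41.5%) and 7 lower (17.1%) at 48 h. FCF1 (0.965) and RIOK3 (0.76) were higher and TBL3 (-0.65) lower at 12 h, and UTP11 (0.78), EMG1 (0.69) and WDR46 (0.57) were higher at 48 h. FCF1, TBL3, UTP11, EMG1 and WDR46 act in the processome, and RIOK3 is a kinase of late 40S particles. With arrays centred on their medians the 12 h split of this list turned to 14 higher and 2 lower, and at 48 h it stayed 17 and 7. Of 43 other 60S factors, 6 were higher (14.0%) and 17 lower (39.5%) at 12 h, near the shares of all tested genes, and 10 higher (23.3%) and 9 lower (20.9%) at 48 h. With centring they were 8 and 9 at 12 h and 10 and 5 at 48 h. PELP1 (-0.85) and NOL9 (-0.845), which act together in processing the precursor RNA of the 60S subunit, were lower at 12 h. NIFK (0.79), a partner of the proliferation antigen Ki-67, was higher at 12 h. EIF6, which keeps 60S subunits from joining 40S subunits, was higher by 1.23 ± 0.085 at 48 h (adjusted p = 3.14e-07), and RPF1 was higher (0.54). TMA16 had signals of 7.17, 4.99 and 6.92 in CdCl cells at 48 h, against 7.79, 7.86 and 7.33 in control cells, a change of -1.30 ± 0.43 (adjusted p = 0.0233). Its CdCl replicate 2 stood far below the other arrays, and without it the change was -0.62 (adjusted p = 0.0111). The call was lost without control replicate 1 (0.0647) or 2 (0.07) at 48 h.

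Of 15 other snoRNP and snoRNA assembly proteins, 1 was higher (6.67%) and 4 lower (26.7%) at 12 h, and 6 were higher (40%) and 1 lower (6.67%) at 48 h. NUFIP1 (-0.42), a snoRNP assembly factor, and PIH1D1 (-0.26), an R2TP chaperone subunit, were lower at 12 h and RUVBL2 (0.29), its ATPase partner, higher, and NOP10 (0.47), PIH1D1 (0.40) and NHP2 (0.40) were higher at 48 h. NOP10 and NHP2 are core proteins of box H/ACA snoRNPs. With centring, 1 was higher and 1 lower at 12 h. Of 13 RNA exosome subunits and cofactors, which trim precursor RNA, 1 was higher (7.69%) and 4 lower (30.8%) at 12 h, and 3 higher (23.1%) and 1 lower (7.69%) at 48 h. EXOSC6 was higher at 12 h (1.305 ± 0.14), EXOSC9 lower at both times (-0.66 and -0.89), EXOSC8 lower at 12 h (-0.57), and EXOSC1 (0.77) and EXOSC7 (0.59) higher at 48 h. With centring the exosome split at 12 h was 3 higher and 3 lower. Of 7 tested snoRNA host genes, whose introns carry snoRNAs, 0 were higher and 1 lower (TAF1D, -0.42, 14.3%) at 12 h, and 4 were higher (57.1%) and 0 lower at 48 h, among them SNHG17 (0.65), SNHG32 (0.635) and ZFAS1 (0.585). With centring, 3 host genes were higher at 12 h and 5 at 48 h.

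Cytosolic ribosomal proteins were mostly not called. Of the 53 tested, 0 were higher and 5 lower (9.43%) in CdCl cells at 12 h, and 2 were higher (3.77%) and 15 lower (28.3%) at 48 h, where the share lower was near the 28.0% of all tested genes and the share higher was smaller than their 26.5%. They had median changes of -0.055 and -0.12. Their lower calls at 48 h numbered 10 with arrays centred on their medians, and at 12 h the split then was 5 higher and 1 lower, the reverse of the deposited direction. RPL36 (-0.36), RPL35A (-0.295) and RPS28 (-0.18) were lower at 12 h, and RPL27A (-0.39) and RPLP2 (-0.36) were lower and RPL36A (0.495) higher at 48 h. The probe sets of RPLP2 and RPL36A were dim, with group means of 4.44 to 5.06 and of 4.17 to 4.79, close to the filter of 4. Probe sets of ribosomal proteins can bind transcripts of their many pseudogenes. The bar chart of called shares sets these lists beside the 37 members and all tested genes, and the difference between the lists was not tested.

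**Figure D5:**
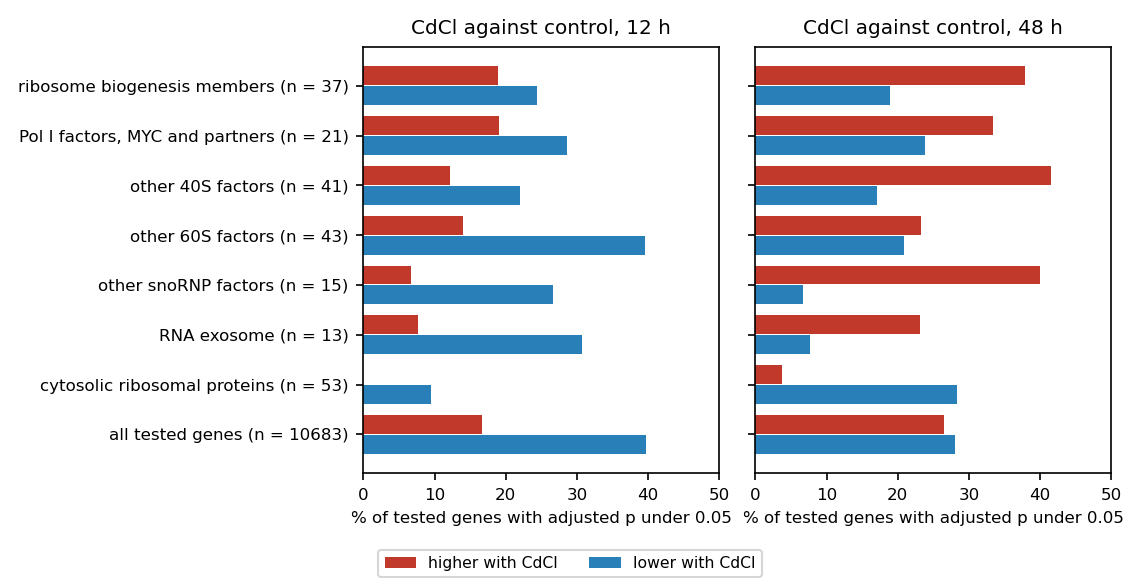
Bars give the percentage of each list's tested genes called higher (red) or lower (blue) with CdCl at adjusted p under 0.05, at 12 h on the left and 48 h on the right, with the number tested in brackets and all tested genes at the bottom. The ribosome biogenesis members reach 37.8% higher and 18.9% lower at 48 h, the cytosolic ribosomal proteins have more lower than higher calls at both times as deposited (reversed at 12 h with arrays centred on their medians), and all tested genes have 39.7% lower at 12 h.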

How the data were processed

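Gene expression was measured in HK-2 cells on 12 Affymetrix arrays in 4 groups of 3. The deposited values are log2 signals for 54675 probe sets, which the authors made with GCRMA, per the submitters' processing notes. GCRMA corrects background by probe sequence, normalises between arrays and summarises probe sets, with a version not given in the sources used here. The values were used as deposited. Array medians over all probe sets without the 62 control probe sets lay between 2.97 and 3.04. Detection calls and scanner files were not used here. Precision is limited by 3 arrays a group and, for dim genes, by background.

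Symbols came from the platform annotation, in which 41091 probe sets had 1 symbol and 1801 several. Tests used R 4.3.3 and limma 3.58.1 (lmFit and eBayes, 4 group means, two-sided, Benjamini-Hochberg over 10683 genes). The contrasts were CdCl against control at 12 h and at 48 h, their difference, and 48 h against 12 h in each treatment. The fit was tested on simulated data. Promoters and figures used Python 3.11.15, pandas 2.3.3 and matplotlib 3.10.9.

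The members and all lists were chosen with earlier results of these data known. Signals on each array are given, by role, for up to 3 members with the largest called change at each time. Up to 3 genes are named in each other list at each time. MYC, POLR1H, POLR2E, RRN3, TTF1, TAF1B, TAF1D among the Pol I factors, the tubule markers and later values of named genes were added after their values were seen. The alternatives were quantile normalisation, centring, other filters, the mean of a gene's probe sets, a mean-dependent prior, only the arrays of one time, the replicate number as a block, and leaving out each array. TAF1D stands in 2 lists. The labels do not say whether replicate numbers pair the groups, and the main fit did not pair them. The deviations of same-numbered arrays from their group means correlated at -0.336 to 0.158, with 3 of 18 pairs over 0.1. With 3 arrays a group this shows no clear pairing but cannot exclude a shared day.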

Additional observations from a re-analysis of the deposited data

Results flagged for a closer look

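For 9 members the effect of CdCl differed between 48 h and 12 h by the test of the difference itself, the limma interaction, with p-values adjusted over all tested genes. The 48 h effect minus the 12 h effect was 0.545 for POLR1A (adjusted p = 0.0108), 0.538 for IMP4 (adjusted p = 0.00182), 0.578 for RRP9 (adjusted p = 0.0184), 0.365 for BYSL (adjusted p = 0.0181), 0.393 for TSR1 (adjusted p = 0.0132), 0.338 for NOP2 (adjusted p = 0.0211) and 0.383 for PES1 (adjusted p = 0.0451). It was -0.384 for WDR43 (adjusted p = 0.0295) and -0.605 for DDX52 (adjusted p = 0.0206). Of the members 18.9% were called higher and 5.41% lower in this contrast, against 27.0% and 13.0% of all tested genes, so the members were called less often. The median of this difference over all tested genes was 0.13 as deposited. With arrays centred on their medians, BYSL, TSR1, NOP2 and PES1 were no longer called. The other tested probe sets of POLR1A, DDX52 and TSR1 were not called in this contrast.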

How the results depend on the processing

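With each array centred on its median over the tested genes, the 12 h counts were 12 higher and 2 lower with a median of 0.141, the 48 h lower count was 4, the counts for the difference of effects were 3 higher and 4 lower with a median of -0.044, and the count higher at 48 h than at 12 h in CdCl cells was 5. After this centring 1907 of the 10683 tested genes were higher and 1989 lower in the difference of effects, and 3412 were higher at 48 h in CdCl cells. Of all calls at 12 h, 70.4% were lower as deposited, 67.5% after quantile normalisation and 52.1% after centring. With the mean of a gene's probe sets, the count higher at 48 h in control cells was 3, NOLC1 at 12 h turned to 0.291 (adjusted p = 0.000555) and RRP1B at 12 h to 0.037 (adjusted p = 0.654), and the calls of HEATR1 at 12 h (0.846), POLR1E (0.212) and NCL (0.0628) at 48 h and the differences for DDX52 (0.336), TSR1 (0.202) and PES1 (0.0818) were lost, while UTP4 (-0.203, 0.00547) and NPM1 (-0.184, 0.0052) at 12 h, NOLC1 at 48 h (0.307, 0.000366) and the differences for POLR1D (-0.417, 0.00284) and DDX21 (-0.205, 0.0194) were gained. That mean also took in probe sets that did not pass the filter on their own. Among them were the further probe sets of POLR1E (mean signals 2.906 and 2.701), NCL (2.424) and PES1 (2.072). Their part in the lost calls was not tested. With no filter, DDX10 (0.0541), NOP14 (0.0779), RRP12 (0.0648) and WDR75 (0.0501) at 48 h, POLR1E at 12 h (0.0573) and the differences for DDX52 (0.051) and PES1 (0.0782) were lost, and those for DDX21 (0.0299) and HEATR1 (0.00595) gained. A stricter filter, a log2 signal over 6 on at least 3 arrays, removed RRP9 and POLR1A, so their calls could not be checked there. The other 35 members kept their results. With only the 6 arrays of a time, the 48 h lower count was 4, and the calls of DDX10 (0.0622), NOP14 (0.0718), NPM1 (0.101) and WDR75 (0.0777) at 48 h and POLR1E at 12 h (0.093) were lost. Quantile normalisation lost NOP14 (0.0889) and NPM1 (0.129) at 48 h, POLR1E at 12 h (0.191) and the difference for PES1 (0.0661) and gained NOL6 at 48 h (0.0428). The mean-dependent prior lost NOP14 at 48 h (0.052) and POLR1E at 12 h (0.0562) and gained NOP58 at 12 h (0.0448) and the difference for HEATR1 (0.0402). Leaving out each array in turn gave 7 to 8 higher and 8 to 9 lower at 12 h, 11 to 14 higher and 4 to 7 lower at 48 h (4 without control replicate 2 or 3 at 48 h), and 5 to 8 higher and 1 to 2 lower for the difference. It gave 1 to 5 higher in control cells at 48 h against 12 h (1 without control replicate 3 at 48 h, 2 and 3 without control replicates 2 and 3 at 12 h) and 11 to 16 lower, and 5 to 8 higher (5 without CdCl replicate 1 at 48 h) and 8 to 12 lower in CdCl cells. The medians ranged from -0.034 to 0.019 at 12 h, from 0.091 to 0.184 at 48 h (0.184 without CdCl replicate 2 at 48 h) and from 0.041 to 0.093 for the difference. With the replicate block, a pairing that the labels do not state, the counts were 7 higher and 8 lower at 12 h, 14 and 5 at 48 h, and 6 and 2 for the difference. The calls lost were POLR1E at 12 h (adjusted p = 0.0713), NOP14 (0.0714) and NPM1 (0.0618) at 48 h and the difference for PES1 (0.0564). The causes of these differences were not tested. With 3 arrays a group and no detection calls, small changes of dim genes cannot be resolved.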
